A study of Homo sapiens with 16 samples.

Results

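The DNAJ genes encode the J proteins, the co-chaperones that deliver substrates to the HSP70 chaperones. The RNA of these genes was measured here in cultures labelled HepG2 and Huh-7 that were given the cardiotonic steroid cinobufagin. The members were all genes whose symbol starts with DNAJA, DNAJB or DNAJC and that were listed in at least 1 library, which gave 44 of the 16697 genes listed in all. They divide into 4 DNAJA, 11 DNAJB and 29 DNAJC genes. DNAJB8 was the single protein-coding gene of these subclasses in the reference table that no library listed. The groups were HepG2 cells, untreated (0 h, 1 library) or given cinobufagin at 5 µmol/L for 12 h or 24 h (3 libraries each), and Huh-7 cells, untreated (0 h, 3 libraries) or given the same dose for 12 h or 24 h (3 libraries each). Both names are those of established human liver cancer lines, and the labels name no genetic change and no vehicle control. The design asks how the RNA of each line changes with hours of treatment.

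Every J protein carries a J domain, whose histidine, proline and aspartate motif stimulates the ATPase of an HSP70, so that the HSP70 closes on its substrate. Class A members resemble bacterial DnaJ, class B members keep its J domain and a glycine-rich stretch, and class C members share little beyond the J domain and work at fixed places such as the ribosome, the translocon or the mitochondrial import motor. Some members are made at all times, and others, with DNAJB1 as the classic example, are induced by heat shock factor 1 when unfolded protein accumulates in the cytosol, or by the unfolded protein response when it accumulates in the endoplasmic reticulum. Cinobufagin blocks the Na,K-ATPase and so disturbs the sodium and potassium balance of the cell.

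The libraries held 9543048 to 10457853 expected counts each, and between 14008 and 14865 genes were listed per library. A gene with no count could at this depth have up to 3, which is 0.287 to 0.314 CPM. CPM are counts scaled to library size, here and for the markers below to the plain total, and elsewhere to the effective library size. Whether replicate libraries stem from separate cultures is not stated in the labels, and p-values therefore measure only how these libraries vary, perhaps for technical reasons. Untreated HepG2 rests on 1 library, whose spread was taken to be that of the other groups. Hepatocyte markers were weak in cultures of either label. Of the 15 fixed for this check 9 were listed at all, 11 or 12 stood under 1 CPM or were unlisted in every group (AFP, APOA1, SERPINA1 and TTR among them), and RBP4 alone passed 10 CPM in untreated HepG2, with HNF4A beside it in untreated Huh-7. Markers of other cells (9 genes) summed to 1300 CPM at 0 h, 702 to 724 at 12 h and 491 to 528 at 24 h in HepG2. In Huh-7 they summed to 617 to 629, 332 to 343 and 242 to 257 CPM. CD68, COL1A1 and KRT7 reached 10 CPM in every group, as did KRT19 in every HepG2 group and EPCAM in untreated Huh-7. COL1A2 and VWF stood under 1 CPM in every group, as did PTPRC and EPCAM in HepG2 and KRT19 in Huh-7. The hepatocyte markers summed to 16.9 CPM at 0 h, 11.5 to 14.5 at 12 h and 14.9 to 19.2 at 24 h in HepG2, and to 62.3 to 63.9, 25.7 to 27.9 and 23.7 to 26.5 CPM in Huh-7. The part of these markers in the results below was not tested. The line names are those of the labels, and whether the cultures are those lines was not tested.

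After cinobufagin, 28 of the 42 members that had enough counts to be tested (66.7%) were higher or lower in at least 1 of the 4 comparisons with untreated cells, which is near the 66.1% of all genes tested. Of these, 18 members were higher and never lower (42.9%, beside 26.8% of all genes), 10 were lower and never higher (23.8%, beside 37.7%), and 0 were called in both directions (beside 1.55%). A member was called when its Benjamini-Hochberg adjusted p in edgeR's quasi-likelihood test over all 13633 genes was under 0.05 and its change at least 2-fold. In HepG2 at 12 h 11 members were higher (26.2%) and 6 lower (14.3%), beside 14.3% and 23.6% of all genes tested. In HepG2 at 24 h 9 were higher (21.4%) and 5 lower (11.9%), beside 14.1% and 22.3% of all genes. In Huh-7 at 12 h 12 were higher (28.6%) and 7 lower (16.7%), beside 16.8% and 27.1%, and in Huh-7 at 24 h 14 were higher (33.3%) and 5 lower (11.9%), beside 17.9% and 26.9%. The median log2 change of the members lay near 0 throughout, at 0.02 and 0.13 in HepG2 and −0.02 and 0.08 in Huh-7 (12 h, then 24 h), beside −0.09 and −0.01, and −0.10 and −0.04, for all genes. The 12 h and 24 h comparisons of a line share their untreated libraries. In bulk RNA, fewer cells with a transcript and less of it per cell cannot be told apart.

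These counts depend on how libraries are scaled. Scaling to plain library size moved the median change of all genes to −0.49 and −0.28 in HepG2 and to −0.51 and −0.39 in Huh-7, so that 6 members were higher and 12 lower in HepG2 at 12 h (7.77% and 32.4% of all genes), 6 and 7 in HepG2 at 24 h (8.79% and 27.6%), 11 and 14 in Huh-7 at 12 h (9.80% and 36.2%), and 9 and 8 in Huh-7 at 24 h (10.9% and 34.0%). Upper quartile scaling gave 9 and 9 members in HepG2 at 12 h (11.1% and 27.1% of all genes) and 9 and 7 at 24 h (11.1% and 24.9%). In Huh-7 it gave 12 and 10 at 12 h (12.0% and 32.8%) and 11 and 7 at 24 h (12.1% and 32.5%). Dividing by the library median, the step that the growth protocol describes, gave 14 and 3 in HepG2 at 12 h (20.9% and 18.1% of all genes) and 14 and 5 at 24 h (19.0% and 18.8%). In Huh-7 this step gave 16 and 6 at 12 h (24.0% and 22.0%) and 16 and 5 at 24 h (23.5% and 23.3%). The called directions of the 19 members chosen by rule for full values held under every scaling tried.

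DNAJB6, DNAJB9 and DNAJC2 were called higher in all 4 comparisons with untreated cells, as was the read-through gene DNAJC25-GNG10, and DNAJC19 was called lower in all 4 (5.85% of all genes were higher and 12.0% lower in all 4). DNAJB1 and DNAJA4, both cytosolic, were called higher in Huh-7 at 12 h and in no other comparison with untreated cells. A set of 14 tested members was called in none of the 4 comparisons, with log2 changes between −0.91 and 0.97 (DNAJB2, DNAJB7, DNAJB12, DNAJB13, DNAJC5, DNAJC5G, DNAJC7, DNAJC11, DNAJC15, DNAJC18, DNAJC21, DNAJC22, DNAJC24 and DNAJC27).

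**Figure D1:**
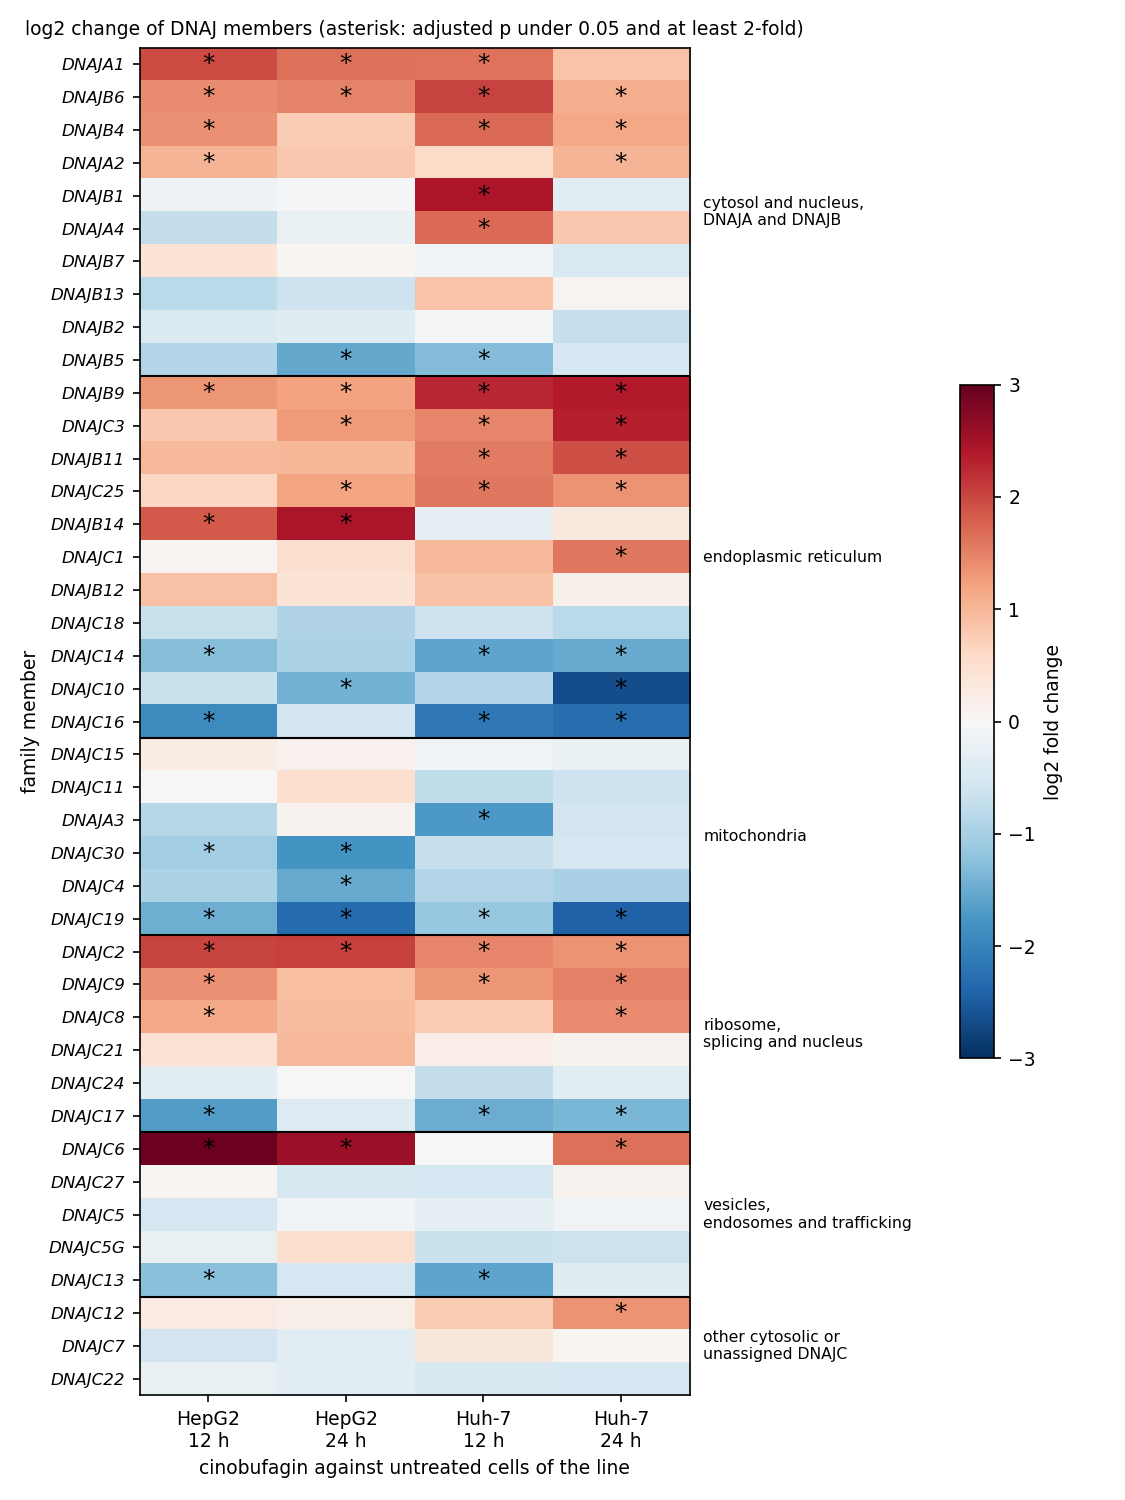
Log2 change of 41 tested DNAJ members (rows, by place of work) after cinobufagin against untreated cells of the same line (columns), from red (higher) to blue (lower), with an asterisk for each call at an adjusted p under 0.05 and at least 2-fold. DNAJB1 is red in Huh-7 at 12 h alone, DNAJB9 is red in every column, DNAJC19 is blue in every column, and the read-through gene DNAJC25-GNG10 is left out.

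On the per-length FPKM scale, on which genes can be compared with each other, the family as a whole made up 698 FPKM in untreated HepG2, 772 ± 10.3 at 12 h and 830 ± 21.5 at 24 h (SD, n = 3). In Huh-7 it made up 714 ± 3.06, 1090 ± 22.4 and 901 ± 10.9 FPKM at 0, 12 and 24 h. Class B carried the 12 h peak of Huh-7, with 166 ± 2.07, 496 ± 19.7 and 218 ± 4.59 FPKM at 0, 12 and 24 h, while class C stood at 403 ± 4.0, 396 ± 4.50 and 516 ± 5.29 FPKM. The authors' FPKM lack the TMM scaling of the CPM, so sums at different times are not on the scale of the calls. DNAJC8, with 1 transcript, went from 101.64 to 172.95 CPM but from 71.1 to 90.7 FPKM in Huh-7 between 0 and 12 h. A class C sum that stays level in FPKM is thus not shown to be level in CPM. DNAJC8, a protein of the spliceosome, was the most abundant member in 5 of the 6 groups, with 149 ± 2.36 FPKM in Huh-7 at 24 h. In Huh-7 at 12 h DNAJB1 led with 235 ± 10.5 FPKM, ahead of DNAJB6 with 157 ± 6.27 and DNAJA1 with 146 ± 4.82 FPKM, and while DNAJB1 exceeded the others in every library, DNAJB6 and DNAJA1 overlapped. DNAJB1 alone was 8.27 ± 0.31% of the family's FPKM in untreated Huh-7, 21.5 ± 0.54% at 12 h and 4.10 ± 0.02% at 24 h.

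DNAJB1, the stress-inducible class B protein known as HSP40, peaked in Huh-7 and did not in HepG2. In Huh-7 it stood at 110.4, 117 and 119 CPM at 0 h, 591, 650.3 and 609 at 12 h, and 94.0, 92.2 and 90.5 at 24 h. The 12 h libraries lay far above the rest, and the 24 h libraries all lay below the untreated ones. The log2 change was 2.42 ± 0.041 (SE, adjusted p = 9.76e-32) at 12 h, a 5.34-fold rise, and −0.32 ± 0.047 (SE, adjusted p = 1.76e-07) at 24 h, under the 2-fold threshold, both by edgeR quasi-likelihood with p-values adjusted after Benjamini-Hochberg. In HepG2 the values were 111 CPM at 0 h, 100.3, 99.6 and 98.4 at 12 h, and 103, 112 and 107 at 24 h. These overlapped between 24 h and untreated cells, with log2 changes of −0.16 ± 0.066 at 12 h and −0.04 ± 0.065 at 24 h. No difference between the untreated lines passed the test, at 111 CPM in HepG2 and 110.4, 117 and 119 CPM in Huh-7 (−0.06 ± 0.064 SE, adjusted p = 0.447). The HepG2 change at 12 h minus the Huh-7 change was −2.58 ± 0.077 (SE, adjusted p = 4.29e-23).

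DNAJA4, a cytosolic class A member, also peaked at 12 h in Huh-7, at a lower level. Its values there were 13.6, 14.1 and 12.9 CPM at 0 h, 45.6, 44.6 and 43.0 at 12 h, and 25.1, 24.6 and 22.2 at 24 h. The 3 groups did not overlap, 12 h being highest, and the log2 change was 1.71 ± 0.075 (SE, adjusted p = 2.81e-20) at 12 h, called, and 0.82 ± 0.083 at 24 h, not called. In HepG2 it had 40.5 CPM at 0 h, 26.1, 25.0 and 22.6 at 12 h, and 35.6, 34.7 and 35.8 at 24 h. The untreated HepG2 library was the highest of the 7, and neither change there, −0.72 ± 0.094 at 12 h or −0.20 ± 0.088 at 24 h, reached 2-fold. The difference of the changes, HepG2 minus Huh-7, was −2.43 ± 0.12 (SE, adjusted p = 1.74e-17) at 12 h and −1.02 ± 0.12 (SE, adjusted p = 9.55e-09) at 24 h, and the 24 h value fell short of 2-fold in several alternatives.

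The promoters of these genes are shown because heat shock factors bind inverted repeats of the unit GAA. The windows of 250 bases before each RefSeq start (GRCh38.p14) covered 40 of the 44 members in 52 windows, and 35097 windows of all genes. The pair GAANNTTC was found upstream of DNAJA1, DNAJA4, DNAJB1, DNAJB6 and DNAJB7 and in 5.78% of all windows. The opposite pair TTCNNGAA was found upstream of DNAJB4, DNAJB6 and DNAJC15 and in 6.62% of all windows. At least 2 copies of GAANNTTC were found in 0.291% of all windows, and among members in DNAJA4 and DNAJB1 alone. The longer GAANNTTCNNGAA, which contains both pairs, was found in 0.442% of windows, with DNAJB6 the single member. Both strands were searched, each pair reads the same on either strand, and the letters were chosen after the values above had been seen. The members printed here were picked by hand, and all of them were called higher against untreated cells. DNAJB7 and DNAJC15, which also hold a pair, were called in no comparison with untreated cells and are not printed. Stretches free of annotated exons are printed on the gene's strand, with the matches in capitals.
DNAJB1, chr19:14518421-14518497, minus strand, ending 23 bases before the start: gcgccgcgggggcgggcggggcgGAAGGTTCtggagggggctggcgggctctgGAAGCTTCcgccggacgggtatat
DNAJA4, chr15:78264462-78264561, plus strand, ending at the base before the start: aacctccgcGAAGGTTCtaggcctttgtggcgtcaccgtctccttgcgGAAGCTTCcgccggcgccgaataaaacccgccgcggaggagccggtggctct
DNAJB6, chr7:157336854-157336965, plus strand, ending 38 bases before the start: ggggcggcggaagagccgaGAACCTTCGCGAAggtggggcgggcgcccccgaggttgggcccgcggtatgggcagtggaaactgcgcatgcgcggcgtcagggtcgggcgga
DNAJA1, chr9:33025073-33025210, plus strand, ending 62 bases before the start: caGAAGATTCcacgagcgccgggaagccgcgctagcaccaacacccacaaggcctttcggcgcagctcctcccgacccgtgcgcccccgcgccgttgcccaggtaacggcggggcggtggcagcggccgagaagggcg
DNAJB4, chr1:78004839-78004853, plus strand, ending 85 bases before the start: tgTTCTAGAAagtac
DNAJB1 and DNAJA4 hold the same 2 octamers, GAAGGTTC and GAAGCTTC, which begin 77 and 47 bases before the start in DNAJB1 and 91 and 52 bases before it in DNAJA4. A match describes these letters and does not show that a factor bound there. DNAJB7, whose window also holds GAAGCTTC, stood between 0.83 and 2.74 CPM in all libraries and was called in no comparison.

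DNAJA1, a farnesylated partner of cytosolic HSP70, rose in both lines. It had 65.9 CPM at 0 h, 261, 252 and 254 at 12 h, and 220.0, 207 and 192 at 24 h in HepG2. In Huh-7 it had 120.0, 126 and 126 CPM at 0 h, 374, 377 and 397 at 12 h, and 231, 233 and 209.7 at 24 h. No treated library of either line came near the untreated range. The log2 change was 1.96 ± 0.076 (SE, adjusted p = 3.88e-21) and 1.65 ± 0.076 (SE, adjusted p = 4.27e-19) in HepG2 at 12 and 24 h, and 1.63 ± 0.045 (SE, adjusted p = 8.94e-26) in Huh-7 at 12 h, all called. At 24 h in Huh-7 it was 0.85 ± 0.047, below the 2-fold threshold. The reference table holds 6 pseudogenes of DNAJA1, none of them listed.

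DNAJB6, which holds back the aggregation of polyglutamine proteins, was called higher at both times in both lines. HepG2 had 59.0 CPM at 0 h, 160.0, 153 and 158 at 12 h, and 158, 169.5 and 168 at 24 h. Huh-7 had 68.8, 69.3 and 70.4 CPM at 0 h, 272, 296 and 282 at 12 h, and 144, 139.9 and 156 at 24 h. Every treated library exceeded every untreated one, and in Huh-7 the 12 h libraries exceeded those of 24 h. The log2 changes were 1.41 ± 0.073 (SE, adjusted p = 6.17e-18) and 1.48 ± 0.072 (SE, adjusted p = 1.51e-18) in HepG2 and 2.03 ± 0.046 (SE, adjusted p = 2.31e-28) and 1.08 ± 0.048 (SE, adjusted p = 4.23e-20) in Huh-7 (12 h, then 24 h). The Huh-7 24 h call was lost at 0.80 under upper quartile and at 0.72 under plain library size scaling. The reference table holds 8 pseudogenes of DNAJB6, none of them listed, so reads of such copies may have been counted with the gene.

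DNAJB4, a close relative of DNAJB1, rose at 12 h in both lines. Its values were 27.0 CPM at 0 h, 69.4, 67.4 and 73.5 at 12 h, and 47.8, 42.0 and 47.6 at 24 h in HepG2. In Huh-7 they were 20.2, 16.1 and 18.1 CPM at 0 h, 53.8, 62.7 and 61.1 at 12 h, and 39.1, 42.6 and 40.3 at 24 h. The 12 h libraries were highest in either line and the untreated ones lowest. It was called at 12 h in HepG2 (1.38 ± 0.10 SE, adjusted p = 1.12e-13) and at 12 h (1.70 ± 0.079 SE, adjusted p = 1.02e-19) and 24 h (1.16 ± 0.083 SE, adjusted p = 1.28e-14) in Huh-7, and the HepG2 call at 12 h (0.98) and the Huh-7 call at 24 h (0.81) were lost under plain library size scaling, the second also under upper quartile scaling (0.88). DNAJA2, a class A member with roles much like those of DNAJA1, was called at 12 h in HepG2 (2.02-fold) and at 24 h in Huh-7 (2.05-fold), both just past the threshold. DNAJB5, another relative of DNAJB1 at 0.91 to 5.01 CPM, was the single cytosolic class A or B member called lower, 2.92-fold in HepG2 at 24 h and 2.46-fold in Huh-7 at 12 h. DNAJB2, DNAJB7 and DNAJB13, at most 19.8 CPM in any library, were not called.

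**Figure D2:**
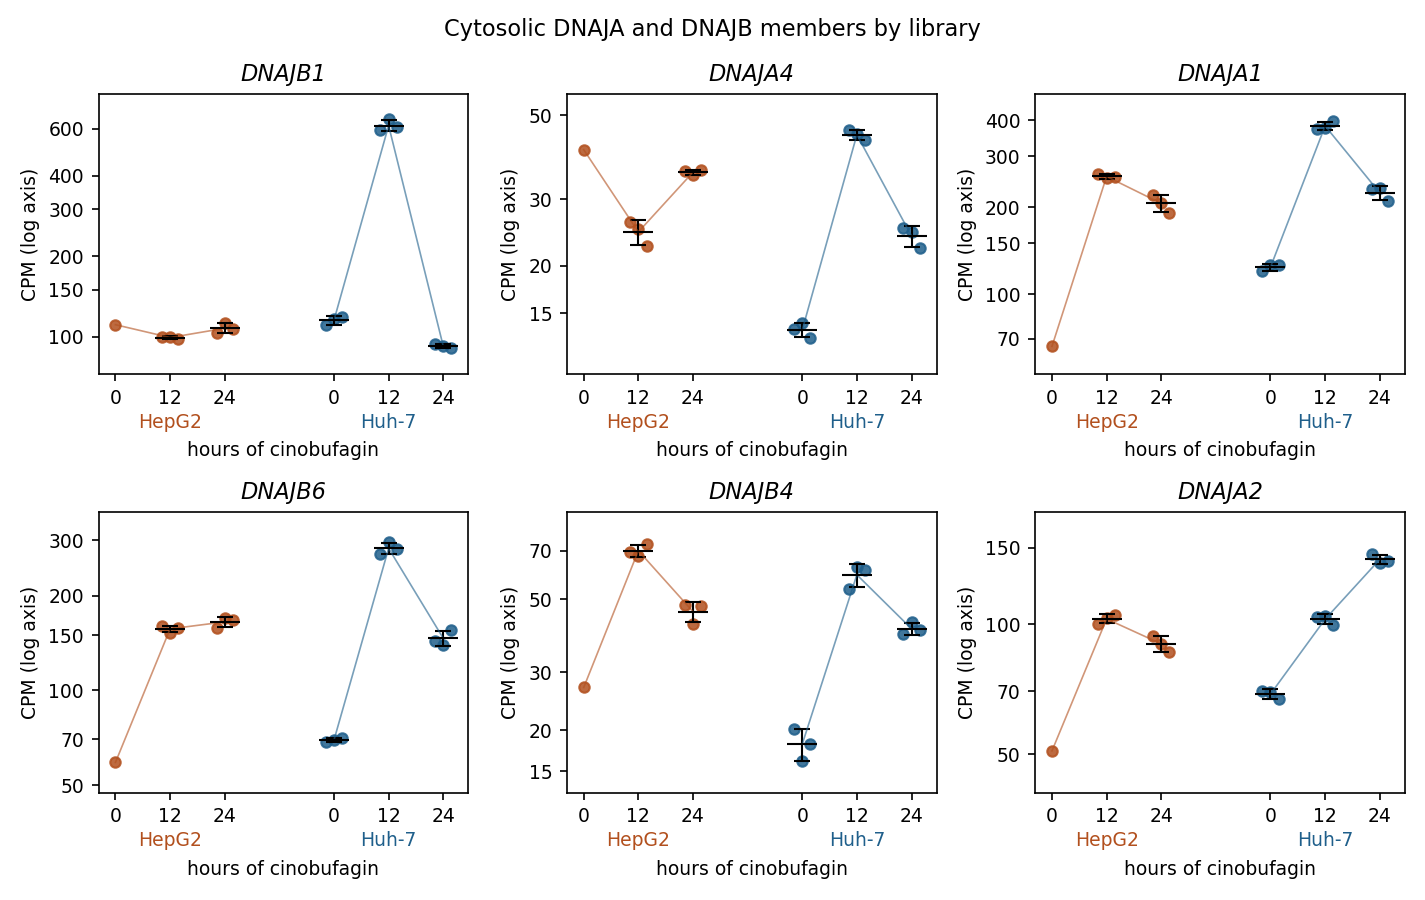
CPM on the TMM scale (log axis, ranges differ between panels) of 6 cytosolic DNAJA and DNAJB members against hours of cinobufagin in HepG2 (orange) and Huh-7 (blue), with each library a point, black bars the mean ± SD and lines joining means. DNAJB1 stands at 591 to 650.3 CPM in Huh-7 at 12 h and between 90.5 and 119 CPM in all other libraries, and DNAJA1 and DNAJB6 are higher in every treated library than in the untreated ones.

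In the endoplasmic reticulum, the J proteins serve the lumenal HSP70 BiP or face the cytosol from the membrane. Of the 11 members placed there, 2 were higher and 2 lower in HepG2 at 12 h (18.2% and 18.2%, beside 14.3% and 23.6% of all genes) and 4 and 1 in HepG2 at 24 h (36.4% and 9.09%, beside 14.1% and 22.3%). In Huh-7 4 were higher and 2 lower at 12 h (36.4% and 18.2%, beside 16.8% and 27.1%) and 5 and 3 at 24 h (45.5% and 27.3%, beside 17.9% and 26.9%). The set is small, and no test of it was made. The higher members were the lumenal DNAJB9, DNAJB11 and DNAJC3 and the membrane proteins DNAJB14, DNAJC1 and DNAJC25, and the lower ones were DNAJC10, DNAJC14 and DNAJC16. Of the motifs of stress factors in the same promoter windows, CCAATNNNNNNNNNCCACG of the unfolded protein response was found in 0.0741% of all windows and in none of a member, TGACGTCA in 1.65% and in DNAJC27, and TGANTCA in 6.57% and in DNAJA4 and DNAJC15, which says only that these letters were or were not in those windows.

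DNAJB9 (ERdj4), which helps to clear misfolded secretory proteins and holds the stress sensor IRE1 in check, rose in every treated group. Its values were 10.1 CPM at 0 h, 26.6, 25.1 and 24.8 at 12 h, and 23.4, 23.3 and 23.0 at 24 h in HepG2. They were 5.31, 5.61 and 5.72 CPM at 0 h, 26.1, 26.6 and 26.9 at 12 h, and 28.3, 29.5 and 28.3 at 24 h in Huh-7. Treated and untreated libraries were well apart, and the untreated Huh-7 level was the lowest. The log2 changes were 1.33 ± 0.12 (SE, adjusted p = 9.36e-12) and 1.20 ± 0.12 (SE, adjusted p = 1.27e-10) in HepG2 and 2.26 ± 0.093 (SE, adjusted p = 5.26e-21) and 2.37 ± 0.091 (SE, adjusted p = 5.38e-22) in Huh-7. The HepG2 change minus the Huh-7 change was −1.17 ± 0.17 (SE, adjusted p = 2.78e-07) at 24 h. The treated levels of the lines overlapped at 12 h, whereas at 24 h every Huh-7 library exceeded every HepG2 library. Both HepG2 calls were lost under plain library size scaling, at 0.94 and 0.93. An exon stretch of 6.7% of DNAJB9 overlaps THAP5 on the opposite strand, and the strand setting of the counting is not given in the sources used here.

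DNAJC3 (p58IPK), a lumenal co-chaperone that binds unfolded chains, kept rising between 12 and 24 h. In Huh-7 it had 53.1, 50.5 and 48.0 CPM at 0 h, 134, 136 and 146 at 12 h, and 251, 253 and 266 at 24 h. In HepG2 it had 34.0 CPM at 0 h, 61.7, 57.4 and 60.5 at 12 h, and 86.7, 81.4 and 77.6 at 24 h. The 3 times did not overlap in either line. The change in Huh-7 was 1.46 ± 0.052 (SE, adjusted p = 8.93e-23) at 12 h and 2.34 ± 0.049 (SE, adjusted p = 2.84e-29) at 24 h, a 5.08-fold rise. In HepG2 it was 0.81 ± 0.090 at 12 h, not called, and 1.27 ± 0.087 (SE, adjusted p = 9.5e-15) at 24 h, and the 24 h difference between the lines was −1.08 ± 0.11 (SE, adjusted p = 1.52e-10). Under plain library size scaling the HepG2 24 h call and the line difference (−0.99) fell short of 2-fold, and the line difference also did so under upper quartile scaling (−0.94).

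DNAJB11 (ERdj3), which binds nascent and misfolded chains and is itself secreted under stress, was called against untreated cells in Huh-7. Its levels in Huh-7 were 27.0, 24.6 and 29.0 CPM at 0 h, 77.4, 80.6 and 80.6 at 12 h, and 110.5, 100.2 and 95.5 at 24 h. In HepG2 they were 59.4 CPM at 0 h, 121, 114 and 116 at 12 h, and 123, 116 and 115 at 24 h. All treated libraries exceeded the untreated ones in both lines, with log2 changes of 1.57 ± 0.065 (SE, adjusted p = 5.46e-21) and 1.93 ± 0.062 (SE, adjusted p = 4.15e-24) in Huh-7 and of 0.98 ± 0.079 and 0.99 ± 0.078 in HepG2, the HepG2 values just under the threshold. The line differences, −0.59 ± 0.10 and −0.93 ± 0.10, did not reach 2-fold, so the calls alone do not separate the lines. DNAJB11 shares 15.9% of its exon bases with TBCCD1 on the opposite strand.

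DNAJC1 (ERdj1), a membrane protein that meets the ribosome at the translocon, had 10.0, 11.8 and 9.61 CPM at 0 h, 21.6, 20.8 and 19.3 at 12 h, and 34.1, 28.8 and 31.7 at 24 h in Huh-7. It had 23.4 CPM at 0 h, 26.0, 20.9 and 25.6 at 12 h, and 35.0, 31.6 and 30.7 at 24 h in HepG2. Each Huh-7 group stood above the one before it in time, whereas untreated and 12 h HepG2 libraries overlapped. The call was for Huh-7 at 24 h (1.59 ± 0.098 SE, adjusted p = 2.98e-16), and the 24 h difference between the lines was −1.12 ± 0.16 (SE, adjusted p = 2.92e-07), which missed 2-fold under upper quartile scaling (−0.98). DNAJC25, a membrane member at 3.89 to 14.7 CPM, was called higher in Huh-7 at 12 h (3.01-fold) and 24 h (2.53-fold) and in HepG2 at 24 h (2.26-fold). It shares 15.8% of its exon bases with the read-through gene DNAJC25-GNG10 on the same strand. These folds therefore depend in part on how the shared reads were divided.

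DNAJB14, a membrane protein whose J domain faces the cytosol and which takes part in the degradation of membrane proteins, rose in HepG2. Its values in HepG2 were 3.11 CPM at 0 h, 11.7, 11.7 and 10.2 at 12 h, and 20.3, 15.6 and 15.6 at 24 h. In Huh-7 they were 10.4, 14.6 and 11.0 CPM at 0 h, 9.06, 11.1 and 9.95 at 12 h, and 14.3, 13.9 and 15.9 at 24 h. The single untreated HepG2 library was by far the lowest of all 16, and the Huh-7 groups at 12 h and 24 h both overlapped untreated Huh-7. The HepG2 changes were 1.84 ± 0.25 (SE, adjusted p = 7.58e-08) and 2.46 ± 0.23 (SE, adjusted p = 2.64e-11), and those of Huh-7 were −0.26 ± 0.14 and 0.29 ± 0.12. The line differences were 2.11 ± 0.29 (SE, adjusted p = 2.07e-07) at 12 h and 2.17 ± 0.27 (SE, adjusted p = 2.91e-08) at 24 h, and all of these HepG2 values rest on that 1 library. Its partner DNAJB12 was called in no comparison, with 1.85-fold in HepG2 and 1.82-fold in Huh-7 at 12 h.

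DNAJC10 (ERdj5), a disulfide reductase that opens misfolded proteins for their export and degradation, fell in both lines. In Huh-7 it had 71.3, 67.0 and 64.3 CPM at 0 h, 34.2, 38.3 and 36.5 at 12 h, and 11.5, 9.24 and 11.5 at 24 h. HepG2 had 39.3 CPM at 0 h, 26.0, 25.0 and 23.8 at 12 h, and 14.3, 15.4 and 14.7 at 24 h. Each time lay below the one before it without overlap. The log2 change in Huh-7 was −2.65 ± 0.079 (SE, adjusted p = 4.89e-25) at 24 h, a 6.27-fold fall, after −0.89 ± 0.063 at 12 h. In HepG2 it was −1.41 ± 0.10 (SE, adjusted p = 8.3e-14) at 24 h after −0.66 ± 0.099 at 12 h, and the 24 h difference between the lines was 1.24 ± 0.14 (SE, adjusted p = 1.93e-09).

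DNAJC14, which escorts receptors through the endoplasmic reticulum, had 56.9 CPM at 0 h, 25.1, 22.9 and 22.8 at 12 h, and 29.2, 29.6 and 29.5 at 24 h in HepG2. Huh-7 had 65.5, 66.6 and 64.0 CPM at 0 h, 20.9, 21.3 and 23.3 at 12 h, and 21.1, 20.7 and 26.5 at 24 h. All treated libraries lay below all untreated ones. It was called lower in HepG2 at 12 h (−1.27 ± 0.095 SE, adjusted p = 8.62e-14) and in Huh-7 at 12 h (−1.58 ± 0.072 SE, adjusted p = 6.77e-20) and 24 h (−1.52 ± 0.070 SE, adjusted p = 8.25e-20), and missed the threshold in HepG2 at 24 h (−0.95 ± 0.091). The HepG2 12 h call was lost (−0.98) when libraries were scaled by their median. ORMDL2 overlaps 24.2% of its exon bases on the opposite strand.

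DNAJC16, a membrane protein linked to autophagosome growth, came back in part in HepG2 by 24 h and stayed low in Huh-7. Its levels were 25.9 CPM at 0 h, 7.89, 6.23 and 6.57 at 12 h, and 17.8, 17.4 and 17.0 at 24 h in HepG2. They were 14.8, 14.5 and 13.2 CPM at 0 h, 3.80, 2.86 and 2.94 at 12 h, and 3.00, 2.49 and 3.30 at 24 h in Huh-7. The 24 h libraries of HepG2 stood between those of 12 h and untreated cells, while in Huh-7 the treated groups overlapped each other. The changes were −1.91 ± 0.14 (SE, adjusted p = 2.52e-14) in HepG2 at 12 h and −2.14 ± 0.14 (SE, adjusted p = 1.44e-15) and −2.27 ± 0.14 (SE, adjusted p = 2.4e-16) in Huh-7, with −0.58 ± 0.12 in HepG2 at 24 h. The difference of the changes was 0.23 ± 0.21 at 12 h and 1.69 ± 0.19 (SE, adjusted p = 2.23e-09) at 24 h.

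**Figure D3:**
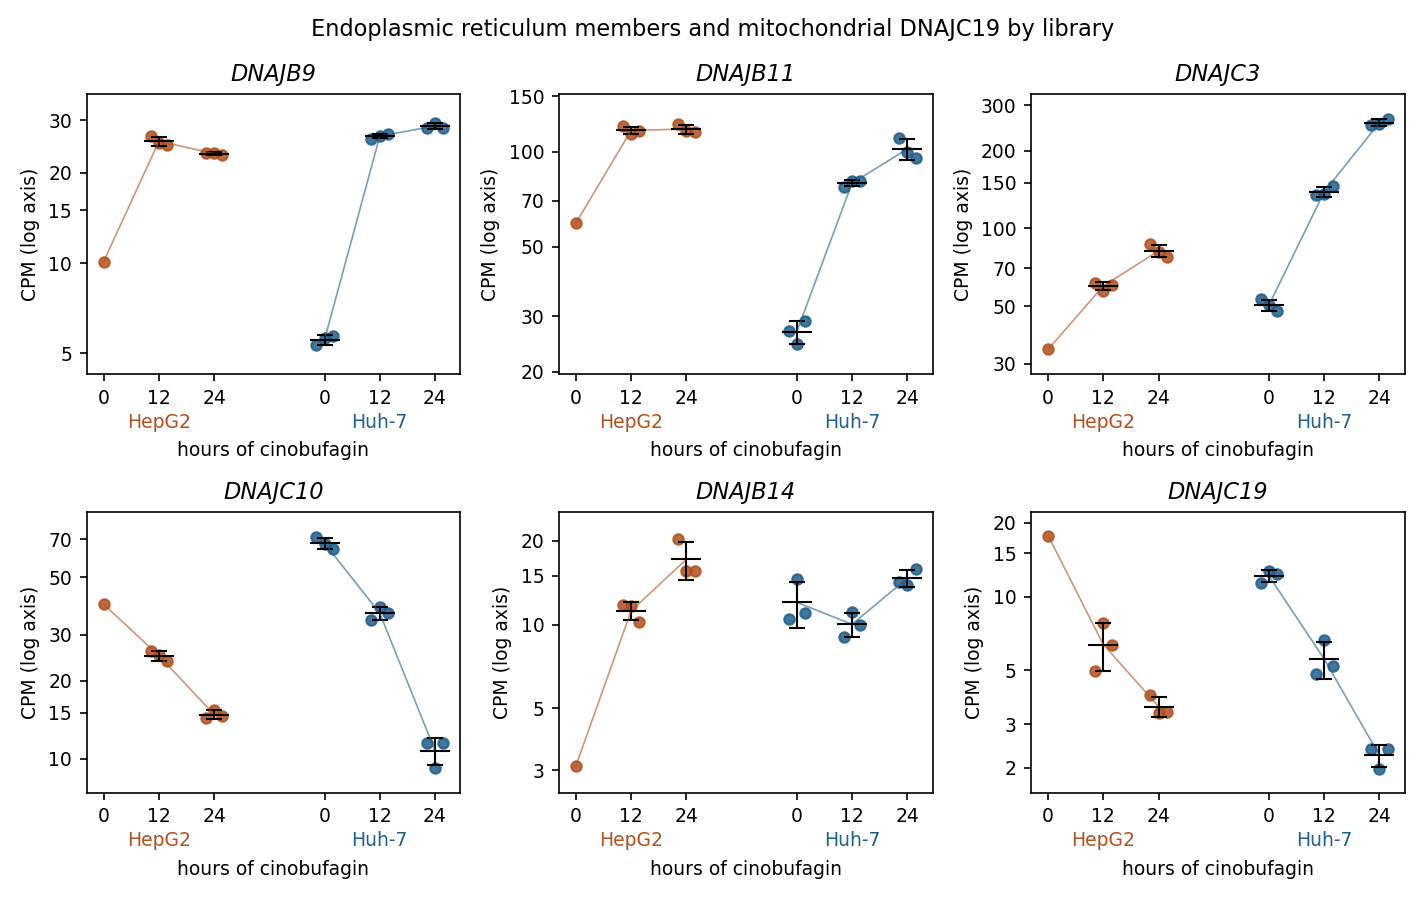
CPM on the TMM scale (log axis, ranges differ between panels) of 5 members of the endoplasmic reticulum and of mitochondrial DNAJC19 against hours of cinobufagin in HepG2 (orange) and Huh-7 (blue), with each library a point, black bars the mean ± SD and lines joining means. DNAJB9, DNAJB11 and DNAJC3 are higher at both times in both lines, DNAJC10 and DNAJC19 are lower at each later time, and untreated HepG2 at 3.11 CPM is the lowest point of DNAJB14.

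Of the 6 mitochondrial members tested, none was called higher than in untreated cells. Of all genes, 14.3% and 14.1% were higher in HepG2 (12 h, then 24 h) and 16.8% and 17.9% in Huh-7. Called lower were 2 and 3 of the 6 members in HepG2 and 2 and 1 in Huh-7. The shares of all genes called lower were 23.6% and 22.3% in HepG2 and 27.1% and 26.9% in Huh-7. So small a set was not tested, and the absence of higher calls is not shown to differ from all genes. DNAJC19 (TIM14) is the inner membrane J protein of the motor that draws precursors into the matrix, and it is singled out after its values were seen. HepG2 had 17.7 CPM at 0 h, 4.96, 7.78 and 6.34 at 12 h, and 3.94, 3.34 and 3.37 at 24 h. Huh-7 had 11.4, 12.7 and 12.3 CPM at 0 h, 4.81, 6.63 and 5.20 at 12 h, and 2.38, 1.97 and 2.37 at 24 h. Every 24 h library lay below every 12 h library of its line, and every 12 h library below the untreated ones. The log2 changes were −1.47 ± 0.17 (SE, adjusted p = 1.7e-09) and −2.31 ± 0.18 (SE, adjusted p = 2.74e-13) in HepG2 and −1.13 ± 0.14 (SE, adjusted p = 8.83e-09) and −2.43 ± 0.17 (SE, adjusted p = 6.29e-15) in Huh-7, falls of 4.97-fold and 5.39-fold at 24 h. The reference table holds 9 pseudogenes of it, none of them listed. DNAJC15, which can take its place in the same motor, stood between 11.9 and 22.9 CPM and was not called.

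DNAJC30, which assists the respiratory chain, and DNAJC4 fell in HepG2. DNAJC30 had 36.2 CPM at 0 h, 17.8, 18.0 and 17.1 at 12 h, and 10.1, 10.5 and 10.5 at 24 h in HepG2, and 14.9, 11.0 and 11.8 CPM at 0 h, 9.28, 8.46 and 5.54 at 12 h, and 9.51, 8.93 and 8.24 at 24 h in Huh-7. Its HepG2 changes were −1.04 ± 0.13 (SE, adjusted p = 9.52e-09) and −1.80 ± 0.14 (SE, adjusted p = 1.02e-13), and those of Huh-7 were −0.70 ± 0.14 and −0.50 ± 0.13. The treated libraries of both lines lay below the untreated ones, the HepG2 call at 12 h was lost (−0.75) under scaling by the library median, and the line difference at 24 h was −1.30 ± 0.19 (SE, adjusted p = 4.74e-07). DNAJC4 had 24.3 CPM at 0 h, 13.4, 12.3 and 12.2 at 12 h, and 6.90, 8.94 and 9.61 at 24 h in HepG2, and 8.38, 8.24 and 6.88 CPM at 0 h, 4.25, 4.69 and 3.73 at 12 h, and 3.10, 5.29 and 3.61 at 24 h in Huh-7. It was called in HepG2 at 24 h (−1.52 ± 0.15 SE, adjusted p = 1.1e-10), and its other changes, −0.94 ± 0.15 in HepG2 at 12 h and −0.89 ± 0.17 and −0.97 ± 0.17 in Huh-7, missed 2-fold by little.

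DNAJA3 (TID1), the class A member of the mitochondrial matrix, dipped at 12 h and was higher again at 24 h. Its values were 104, 107 and 106 CPM at 0 h, 32.2, 30.7 and 33.4 at 12 h, and 71.2, 71.9 and 74.1 at 24 h in Huh-7. They were 127 CPM at 0 h, 68.4, 76.4 and 67.6 at 12 h, and 135, 139.9 and 138 at 24 h in HepG2. The 12 h libraries were lowest in either line, and the 24 h libraries of HepG2 all exceeded the untreated one. It was called lower in Huh-7 at 12 h (−1.72 ± 0.056 SE, adjusted p = 6.16e-24), against −0.85 ± 0.064 in HepG2. At 24 h the changes were 0.11 ± 0.060 in HepG2 and −0.54 ± 0.048 in Huh-7. DNAJC11, an outer membrane partner of the complex that shapes cristae, was not called against untreated cells, at 0.50 ± 0.072 in HepG2 and −0.61 ± 0.059 in Huh-7 at 24 h, but these changes differed by 1.11 ± 0.093 (SE, adjusted p = 5.05e-12). It shares 42.9% of its exon bases with THAP3 on the opposite strand.

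At the ribosome and in the nucleus, DNAJC2, DNAJC8 and DNAJC9 rose and DNAJC17 fell. DNAJC2 (MPP11), which with HSPA14 forms the ribosome-associated chaperone pair that meets new chains, had 10.8 CPM at 0 h, 48.9, 40.1 and 42.7 at 12 h, and 46.0, 47.9 and 39.5 at 24 h in HepG2. Huh-7 had 39.6, 46.9 and 38.0 CPM at 0 h, 113, 113 and 118 at 12 h, and 106, 101 and 109 at 24 h. All treated libraries exceeded the untreated ones, and untreated HepG2 was lowest. The changes were 2.02 ± 0.15 (SE, adjusted p = 5.5e-14) and 2.04 ± 0.15 (SE, adjusted p = 3.56e-14) in HepG2 and 1.47 ± 0.067 (SE, adjusted p = 9.05e-20) and 1.34 ± 0.067 (SE, adjusted p = 9.79e-19) in Huh-7, the last at 0.99 under plain library size scaling. DNAJC8 was called higher in HepG2 at 12 h (2.21-fold) and Huh-7 at 24 h (2.67-fold). DNAJC9, a chaperone of newly made histones H3 and H4, was called in HepG2 at 12 h (2.56-fold) and in Huh-7 at 12 h (2.5-fold) and 24 h (2.84-fold), and FAM149B1 overlaps 25.8% of its exon bases on the opposite strand. The splicing protein DNAJC17, at 4.03 to 14.6 CPM and with 30.7% of its exon bases opposite GCHFR, fell 3.21-fold in HepG2 at 12 h and 2.78-fold and 2.6-fold in Huh-7. DNAJC21, which works in the maturation of the large ribosomal subunit, and DNAJC24, which works in diphthamide synthesis, were not called.

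Among members of vesicles and endosomes, DNAJC6 had the largest change of the family, apart from the read-through gene treated below. DNAJC6 (auxilin) recruits HSC70 to strip clathrin from coated vesicles and is best known from neurons. In HepG2 it had 22.6 CPM at 0 h, 179, 167 and 168 at 12 h, and 138, 133 and 128 at 24 h. Huh-7 had 7.96, 6.97 and 7.46 CPM at 0 h, 8.05, 6.63 and 7.69 at 12 h, and 21.8, 22.1 and 27.1 at 24 h. Treated HepG2 libraries stood far above the untreated one, while in Huh-7 the 12 h and untreated libraries overlapped and those of 24 h lay above both. The log2 changes were 2.93 ± 0.094 (SE, adjusted p = 2.15e-23) and 2.56 ± 0.095 (SE, adjusted p = 1.06e-21) in HepG2, rises of 7.59-fold and 5.9-fold. In Huh-7 they were 0.00 ± 0.14 at 12 h and 1.66 ± 0.10 (SE, adjusted p = 3.8e-16) at 24 h, and the 12 h difference between the lines was 2.93 ± 0.17 (SE, adjusted p = 1.03e-15). GAK, the widely expressed relative of auxilin, was not called in any of the 4 comparisons.

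DNAJC13 (RME-8), which sorts cargo on endosomes, dipped at 12 h. HepG2 had 76.0 CPM at 0 h, 34.2, 31.1 and 30.6 at 12 h, and 54.2, 53.0 and 53.1 at 24 h. Huh-7 had 62.4, 60.5 and 65.5 CPM at 0 h, 20.5, 19.5 and 22.7 at 12 h, and 47.5, 45.8 and 52.2 at 24 h. The groups of a line did not overlap, with 12 h lowest and 24 h between it and untreated cells. It was called lower at 12 h in HepG2 (−1.25 ± 0.082 SE, adjusted p = 3.44e-15) and Huh-7 (−1.59 ± 0.070 SE, adjusted p = 2.95e-20) and not at 24 h (−0.51 ± 0.077 in HepG2 and −0.37 ± 0.059 in Huh-7), and the HepG2 call was lost (−0.96) under scaling by the library median. DNAJC5, the cysteine string protein of exocytic vesicles, and DNAJC27 were not called. DNAJC5B, at 0 to 0.08 CPM, and DNAJC28, at 0 to 0.52 CPM, had too few counts to be tested. DNAJC12, which guards the aromatic amino acid hydroxylases, was called in Huh-7 at 24 h (2.55-fold), while the TPR protein DNAJC7 and DNAJC22 were called nowhere.

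The read-through gene DNAJC25-GNG10 is counted among the higher members of each comparison, but it shares 75.3% of its exon bases with GNG10 and 24.7% with DNAJC25. Its 3 values in Huh-7 at 12 h were 7.61, 8.57 and 0.79 CPM, against 0, 0.76 and 1.82 CPM in untreated Huh-7, and these groups overlap. Untreated HepG2 had 0 counts of it. Its level depends on how the authors' estimation divided the shared reads, so no fold is given.

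Fewer members were called between 12 and 24 h than against untreated cells, and the same held for all genes tested. Of these, 1615 in HepG2 and 1780 in Huh-7 were called between the times, beside 4956 to 6112 against untreated cells. In HepG2, 2 members were higher at 24 h than at 12 h (6.54% of all genes were) and 1 was lower (5.31% of all genes). The higher members were DNAJC16 (1.33 ± 0.12 SE, adjusted p = 7.17e-12) and DNAJC17 (1.31 ± 0.15 SE, adjusted p = 2.19e-09), and the lower one was the read-through gene. In Huh-7, 3 members were higher (6.51% of all genes) and 3 lower (6.54%). DNAJC6 (1.66 ± 0.11), DNAJC13 (1.21 ± 0.075) and DNAJA3 (1.17 ± 0.060) were higher at 24 h, the last 2 of them coming back from a dip. DNAJB1 (−2.74 ± 0.043 SE, adjusted p = 2.78e-31), DNAJC10 (−1.76 ± 0.090 SE, adjusted p = 1.35e-17) and DNAJC19 (−1.30 ± 0.21 SE, adjusted p = 1.78e-06) were lower at 24 h.

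Before treatment the lines differed in 8 members. In untreated HepG2, 6 members were higher than in untreated Huh-7 (13.8% of all genes were) and 2 lower (13.1%). DNAJC4 (1.63 ± 0.15), DNAJC6 (1.59 ± 0.14), DNAJA4 (1.58 ± 0.098), DNAJC30 (1.52 ± 0.13), DNAJC1 (1.16 ± 0.14) and DNAJB11 (1.14 ± 0.089) were higher in HepG2, and DNAJB14 (−1.95 ± 0.24) and DNAJC2 (−1.94 ± 0.15) lower. The HepG2 side of each value is 1 library.

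The response of the lines, tested as the HepG2 change minus the Huh-7 change, differed at 12 h in 4 members. DNAJB14 and DNAJC6 changed more in HepG2 (9.40% of all genes were called so) and DNAJA4 and DNAJB1 less (8.35% of all genes). At 24 h 13 members differed, 6 with the higher change in HepG2 (13.1% of all genes) and 7 with the lower (10.9% of all genes). Upper quartile scaling made these 8 and 3, and plain library size 6 and 4. The 24 h set holds DNAJB9, DNAJC1 and DNAJC3 of the endoplasmic reticulum, each with the larger rise in Huh-7, and DNAJC10 and DNAJC16, each with the deeper fall in Huh-7. All of these differences share the single untreated HepG2 library.

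**Figure D4:**
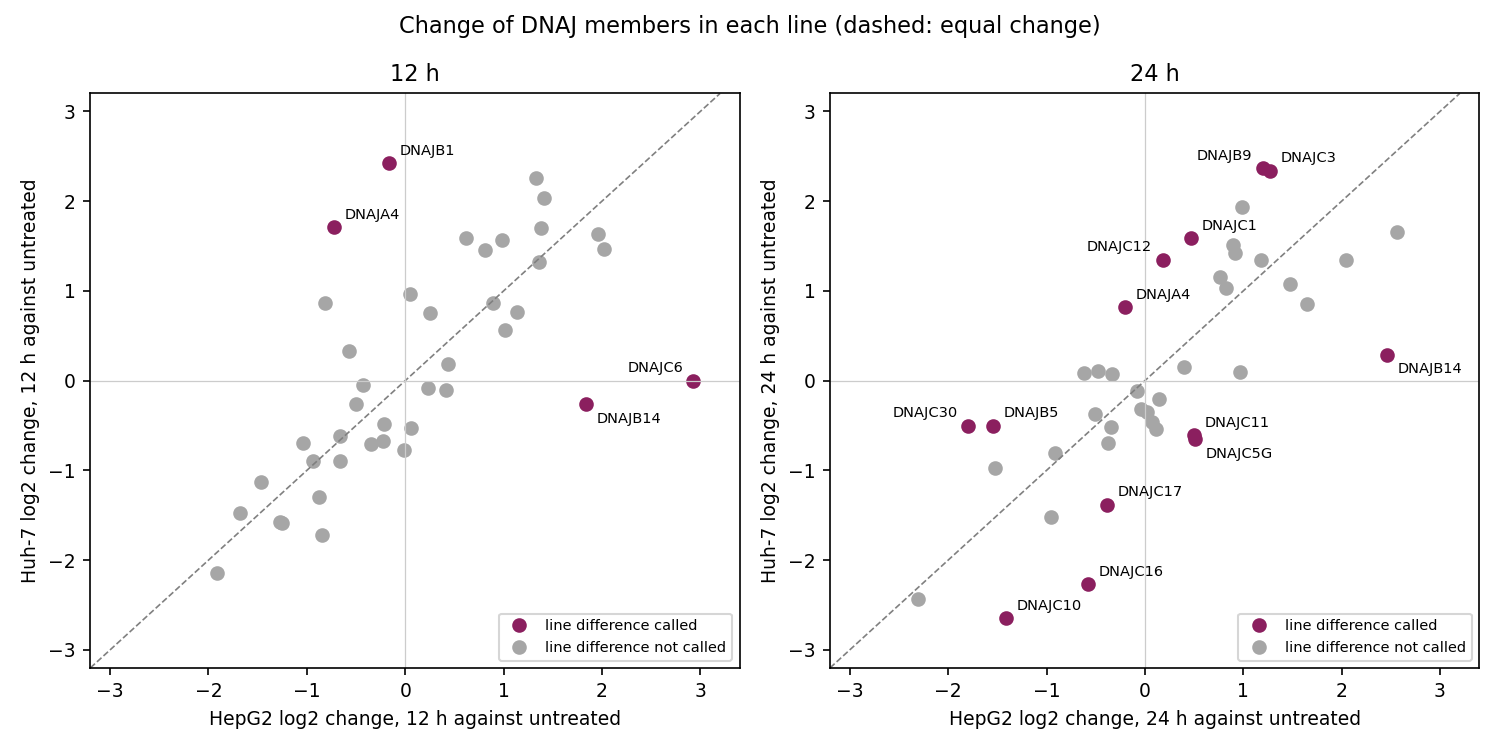
Log2 change of 41 tested DNAJ members at 12 h (left) and 24 h (right) in HepG2 (x axis) against that in Huh-7 (y axis), with members whose line difference was called in purple and named, and a dashed line for equal change. DNAJB1 and DNAJA4 lie far above the dashed line at 12 h, DNAJC6 and DNAJB14 far below it, and both DNAJC10 and DNAJC16 lie below it at 24 h.

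The deposited tables also give, for each gene and library, a mean transcript length weighted by the estimated share of each transcript, and this length moves when the mix of transcripts does. It was assessed in the 16 members that passed the count filter, had several transcripts and averaged at least 10 CPM, and a shift was taken as at least 10% with no overlap between libraries. In HepG2 no member shifted at 12 h (3.63% of 5292 genes did) and 3 at 24 h (3.27% of genes). In Huh-7 2 shifted at 12 h (4.76% of genes) and 1 at 24 h (4.04%). DNAJC12 had 1171, 1161 and 1192 bases at 0 h, 948, 950.0 and 948 at 12 h, and 923, 927 and 936 at 24 h in Huh-7. In HepG2 it had 1138 bases at 0 h, 1033, 1023 and 1031 at 12 h, and 968, 1012 and 1041 at 24 h. Every treated library was shorter than the untreated ones, by 19.2% and 20.9% of the mean in Huh-7 at 12 and 24 h and by 9.6% and 11.5% in HepG2.

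The mean transcript of DNAJB6 was shorter at 12 h in Huh-7 and longer at 24 h in HepG2. Its mean length was 1871, 1908 and 1922 bases at 0 h, 1689, 1676 and 1662 at 12 h, and 1930.0, 1895 and 1914 at 24 h in Huh-7, where the 12 h mean was 11.8% below that of untreated cells. In HepG2 it was 1835 bases at 0 h, 1832, 1845 and 1821 at 12 h, and 2059, 2131 and 2121 at 24 h, where the 24 h mean was 14.7% above the untreated library. DNAJB6 is known to make a long nuclear and a short cytosolic isoform, but the tables do not say which transcripts moved. The mean length of DNAJB14 in HepG2 at 24 h was 52.3% above that of its 1 untreated library (3251 bases at 3.11 CPM). Within groups this length varied widely, at 5995, 4958 and 3899 bases in HepG2 at 24 h. In Huh-7 at 24 h it was 2599, 3483 and 5222 bases. No test was made of these lengths, and DNAJB1, DNAJA1 and DNAJA4 kept their mean length within 1.7% in the 4 comparisons.

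**Figure D5:**
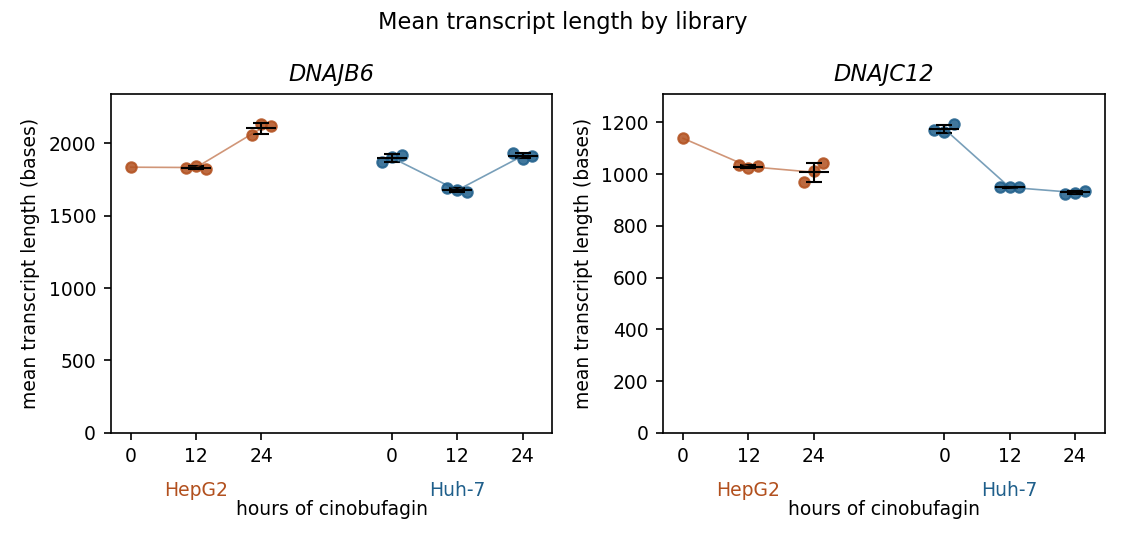
Mean transcript length in bases (axis from 0) of DNAJB6 and DNAJC12 against hours of cinobufagin in HepG2 (orange) and Huh-7 (blue), with each library a point, black bars the mean ± SD and lines joining means. DNAJB6 is shortest in Huh-7 at 12 h (1662 to 1689 bases) and longest in HepG2 at 24 h (2059 to 2131 bases), and DNAJC12 is shorter in every treated library than in the untreated ones.

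The HSP70 proteins and the factors that release their substrates were listed beside the family. Of the 16 HSP70 genes 6 were higher and 2 lower in HepG2 at 12 h (median log2 change 0.88), 9 and 2 in HepG2 at 24 h (1.13), 7 and 3 in Huh-7 at 12 h (0.67), and 4 and 5 in Huh-7 at 24 h (0.10). The shares of all genes higher and lower were 14.3% and 23.6%, 14.1% and 22.3%, 16.8% and 27.1%, and 17.9% and 26.9% in these 4 comparisons. HSPA6, a strictly stress-inducible HSP70, stood at 97.5 ± 2.58 CPM in Huh-7 at 12 h against 0.50 ± 0.01 CPM in untreated Huh-7 (SD, n = 3 each, log2 change 7.57 ± 0.13, adjusted p = 1.13e-31). The values of HSPA6 in the other treated groups are not given, so its rise is not shown to be particular to Huh-7 at 12 h. HSPA8, the constitutive HSP70, stood at 246 ± 3.50 CPM in Huh-7 at 24 h against 1261 ± 6.60 CPM untreated (−2.36 ± 0.034), and at 445 ± 11.0 CPM in HepG2 at 24 h against 142 CPM untreated (1.65 ± 0.053), both called. HSPA14, the ribosomal partner of DNAJC2, was called higher in all 4 comparisons.

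Of the 16 nucleotide exchange and substrate-handling factors 6 were higher and none lower in HepG2 at 12 h, 4 and 1 in HepG2 at 24 h, 6 and 0 in Huh-7 at 12 h, and 6 and 1 in Huh-7 at 24 h, with medians of 0.51, 0.51, 0.46 and 0.69, beside the same 14.3% and 23.6%, 14.1% and 22.3%, 16.8% and 27.1%, and 17.9% and 26.9% of all genes. GRPEL1, the exchange factor of the mitochondrial motor in which DNAJC19 works, rose in all 4, to 162 ± 1.73 CPM in Huh-7 at 24 h against 32.3 ± 1.62 CPM untreated (2.32 ± 0.055). SIL1, the exchange factor of BiP, fell at 24 h, to 19.2 ± 1.30 CPM in HepG2 against 50.6 CPM untreated (−1.39 ± 0.097) and to 14.7 ± 1.62 CPM in Huh-7 against 32.8 ± 1.63 CPM untreated (−1.15 ± 0.083). BAG3, which couples HSP70 to selective autophagy, was at 300 ± 10.4 CPM in Huh-7 at 12 h against 73.6 ± 1.62 CPM untreated (2.03 ± 0.05). Values of BAG3 in the other treated groups are likewise not given. Of the heat shock factors HSF2 was higher and HSF4 lower in all 4 comparisons, HSF1 was called in Huh-7 at 24 h alone (1.06 ± 0.045), and HSF5 was unlisted.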

How the data were processed

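RNA of 16 libraries (6 groups) was sequenced on an Illumina HiSeq instrument, per the labels' protocols. The deposited tables hold, per the file headers, an expected count, an FPKM (fragments scaled to gene length and library size, as computed by the authors) and a transcript length for each gene listed, with 1 library per table. HISAT, Bowtie2 and RSEM as tools and hg19 as the build come from the submitters' processing notes, while versions, annotation and strand setting were not given there. A gene not listed was taken as 0.

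Expected counts were rounded to whole numbers, filtered with filterByExpr (13633 genes kept, 3064 removed with 0.0231% of the counts), scaled by TMM (factors 0.889 to 1.239) and fitted with edgeR 4.0.16 (R 4.3.3, limma 3.58.1) quasi-likelihood over all 16 libraries, with group as the single term. A call needed a Benjamini-Hochberg adjusted p under 0.05 over all genes tested and a change of at least 2-fold. Levels are CPM on the TMM scale, except for the cell type markers and the limit of 0 counts, which use the plain library total. Levels of different genes were compared as FPKM, and the family's FPKM sums were also given by time. Alternatives were other scalings, no filter, DESeq2 1.42.0, a replicate block, fits within a line and leaving out each library. The script was tested on simulated data.

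Members and lists were chosen with earlier results of these data known. A result for 1 gene outside the family is not reported here. Values in every library are given for called members among DNAJA1, DNAJA4, DNAJB1, DNAJB4, DNAJB6, DNAJB9, DNAJB11 and DNAJC3 and for the 5 highest and 5 lowest called members with a mean of at least 10 CPM in each comparison with untreated cells. Promoters came from RefSeq (GRCh38.p14) and exon overlaps from GENCODE on GRCh38, by name, since the tables are on hg19. Depth was 9543048 to 10457853 counts per library, and 0 counts allow up to 3, for counting error only. The share of values that were not whole was 31.1 to 32.3%.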

Additional observations from a re-analysis of the deposited data

Results flagged for a closer look

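Members whose change with treatment differed between the lines by a test of the difference itself (HepG2 change minus Huh-7 change, log2, edgeR's quasi-likelihood test) are listed here, and each rests on the single untreated HepG2 library. At 12 h the difference was −2.58 for DNAJB1 and −2.43 for DNAJA4, and 2.11 for DNAJB14 and 2.93 for DNAJC6. At 24 h it was −1.30 for DNAJC30, −1.17 for DNAJC12, −1.17 for DNAJB9, −1.12 for DNAJC1, −1.08 for DNAJC3, −1.05 for DNAJB5 and −1.02 for DNAJA4. In the other direction at 24 h it was 1.00 for DNAJC17, 1.11 for DNAJC11, 1.16 for DNAJC5G, 1.24 for DNAJC10, 1.69 for DNAJC16 and 2.17 for DNAJB14. DNAJA4, DNAJC5G and DNAJC11 changed by less than 2-fold at 24 h in each line taken alone.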

How the results depend on the processing

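None of the 71 called values of the 19 members chosen by rule reversed in any of the alternatives run, and the directions of the other members were not followed one by one. Scaling to plain library size gave 6 members higher and 12 lower in HepG2 at 12 h (11 and 6 with TMM), 14 lower in Huh-7 at 12 h (7), 9 higher and 8 lower in Huh-7 at 24 h (14 and 5), and 4 with the lower 24 h change in HepG2 (7). Scaling by the library median gave 3 lower in HepG2 at 12 h and 14 higher at 24 h (9 with TMM). Upper quartile scaling gave 5 members lower in untreated HepG2 than in untreated Huh-7 (2) and 3 with the lower 24 h change in HepG2. Without a filter, and likewise with DESeq2, 4 were lower in untreated HepG2, and DESeq2 called 0 lower in HepG2 at 24 h than at 12 h (1). The cause of these moves was not tested. Of those 71 values 13 lost their call under at least 1 alternative, each of them under another scaling. Those whose value the text has not yet given are DNAJC3 in HepG2 at 24 h (1.00, just under 2-fold) and the 24 h line difference of DNAJA4, which was −0.94 with plain library size, −0.88 with the upper quartile, and −0.98 with no filter and with the replicate block.

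Leaving out each library in turn gave, for members higher and lower, 10 to 11 and 6 to 6 in HepG2 at 12 h, 9 to 11 and 5 to 6 in HepG2 at 24 h, 12 to 13 and 7 to 7 in Huh-7 at 12 h, and 14 to 14 and 5 to 6 in Huh-7 at 24 h. Between 12 and 24 h the ranges were 2 to 3 and 1 to 1 in HepG2 and 3 to 4 and 3 to 3 in Huh-7. Between untreated lines they were 6 to 6 and 2 to 3, and for the line differences 2 to 3 and 2 to 3 at 12 h and 5 to 7 and 5 to 7 at 24 h. DNAJA4 lost its 24 h line difference in 5 of these fits (−0.98 to −1.0). The untreated HepG2 library could not be left out. Libraries with the same replicate number did not deviate together (correlations of −0.069 to 0.067 in Huh-7 and −0.013 to 0.018 in HepG2). Libraries with other numbers gave −0.083 to 0.075 in Huh-7 and −0.041 to 0.034 in HepG2. Whether the numbers mark a shared culture or run was not tested. With the replicate block 12 members were higher and 7 lower in HepG2 at 12 h, 11 and 6 in HepG2 at 24 h, 12 and 7 in Huh-7 at 12 h, and 14 and 5 in Huh-7 at 24 h. Depth limits the members under about 1 CPM, DNAJB13, DNAJC5B and DNAJC28.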
